A study of Mus musculus with 48 samples.

Results

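Chemokines are small secreted proteins that steer migrating leukocytes, and they act through G protein-coupled receptors on the surface of the responding cell. Ligands are named by the spacing of their first cysteines (CC, CXC, CX3C and XC), most receptors bind several ligands, and the atypical receptors bind ligand without the usual G protein signal. Macrophages are both a source of chemokines, which call in monocytes, neutrophils and lymphocytes, and a target, since monocytes leave the marrow and enter tissue through Ccr2 and Cx3cr1. The mouse genes for this system were taken by name: protein-coding genes whose symbol is Ccl, Cxcl, Ccr, Cxcr or Ackr followed by a number, plus Cx3cl1, Cx3cr1, Xcl1 and Xcr1. The rule found 60 of the 51789 gene identifiers in the count table, 37 ligands and 23 receptors. 3 further symbols fit the name but are annotated as pseudogenes (Cxcl11, Ccl19-ps1 and Ccl19-ps3) and were not counted as members. Ligands are grouped below by a fixed role list, which places Ccl8 with Ccl2, Ccl7 and Ccl12 as CCR2 ligands. Below, the name CCR2 ligands stands for that list and does not show that mouse Ccl8 acts through Ccr2. The receptor of mouse Ccl8 was not tested.

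Expression was read by 3′ mRNA sequencing (QuantSeq FWD), which counts reads near the end of each transcript, in 48 mouse macrophage libraries: 8 populations, each given 10 µM of the compound AP-3-84 or its DMSO vehicle for 4 h, with 3 libraries per group. Peritoneal macrophages came from ascites of mice bearing ID8 ovarian tumour cells, washed out 45 days after injection (genotype label B6(Cg)-Tyrc-2J/J), or from intact B6 mice 4 days after 1 ml of 3% thioglycollate (genotype label wild-type C57BL/6), and both were sorted on F4/80 with magnetic beads. Bone marrow-derived macrophages were grown for 6 days in M-CSF at 10 ng/mL from wild-type (WT) or p53 knockout (KO) B6 marrow, with strain label C57BL/6 throughout. They were then left unpolarized (M0), given LPS (100 ng/mL) with IFN-γ (50 ng/mL) for 24 h (M1), or given the cytokines IL-4 and IL-13, each at 10 ng/mL, for 24 h (M2). The genotype field reads wild-type for all bone marrow samples, KO included, so the titles and descriptions were used to separate them, and which part of p53 is deleted is not stated. Ages, and whether the 3 libraries of a group came from separate mice or cultures, are also not stated, so p-values measure the spread between these libraries, which may be technical. The ascites and thioglycollate groups differ in tumour, elicitation and strain label together, which cannot be told apart.

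Peritoneal libraries held 15532373 to 19417581 counts and bone marrow libraries 3081707 to 4645148, so the sets were fitted apart and never compared by test. Levels are counts scaled to CPM by the TMM-adjusted library total within a set, and 3 counts correspond to 0.148 to 0.201 CPM in a peritoneal and 0.636 to 0.992 CPM in a bone marrow library. A gene is called changed when edgeR's quasi-likelihood test gives a Benjamini-Hochberg adjusted p under 0.05 over all genes of its set. Where groups are said not to overlap, this describes the values printed, mostly of genes already called, and is no further test. The share of all genes without overlap was not counted. The summed CPM of 8 macrophage markers was 5969.9 to 49118 and all 8 had counts in every group. The p53 targets Phlda3 (9.17 to 40.5 CPM in the 18 WT and 0 to 1.31 in the 18 KO libraries) and Cdkn1a (555 to 1119 against 34.1 to 292) separated the genotypes as labelled, while Trp53 itself overlapped (4.79 to 13.2 against 2.70 to 9.11), and a 3′ tag outside a deleted part checks nothing. 6 libraries stood apart from both mates of their group over the expressed genes: ascites AP-3-84 library 1, WT M0 vehicle library 1, WT M1 vehicle library 3, WT M2 vehicle library 1, KO M0 AP-3-84 library 3 and KO M1 AP-3-84 library 1. Neutrophil markers were uneven within groups: their sum was 4310.3, 628 and 505 CPM in WT M2 vehicle libraries 1, 2 and 3, 428, 735 and 3445 in KO M2 vehicle and 3858, 1097 and 958 in KO M1 AP-3-84.

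Many members lie in clusters. Some neighbours changed together in the results below and others did not, such as Ccl8 beside Ccl2 in ascites. A part of position in these changes was not tested. On chromosome 11 (GRCm38) a block of 81 kb (82035571 to 82116799) holds Ccl2, Ccl7, Ccl11, Ccl12 and Ccl8, and one of 139 kb (83525778 to 83664683) holds Ccl5, Ccl9, Ccl6, Ccl3 and Ccl4. Chromosome 5 carries Cxcl5, Cxcl3, Cxcl15, Cxcl1, Cxcl2, Cxcl9, Cxcl10 and Cxcl13 between 90759360 and 95961068, chromosome 8 carries Ccl22, Cx3cl1 and Ccl17 within 66 kb, and chromosome 9 carries Ccr9, Cxcr6, Xcr1, Ccr1, Ccr1l1, Ccr3 and Ccr2. RefSeq promoters (GRCm38.p6) were matched for 46 of the 60 members. The 250 bases before the start are shown for the neutrophil attractants Cxcl1, Cxcl2 and Cxcl3, for Cxcl10 and for Ccl17, since these genes changed with polarization or genotype in the results that follow. Capitals mark matches to the NF-kB consensus, to the interferon response core (GAAA, 2 bases of any kind, GAAA) or to the STAT6 palindrome (TTC, 4 bases of any kind, GAA), searched on both strands, and each sequence is written 5′ to 3′ along the gene.

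Cxcl1 (chr5:90890995-90891244, plus strand): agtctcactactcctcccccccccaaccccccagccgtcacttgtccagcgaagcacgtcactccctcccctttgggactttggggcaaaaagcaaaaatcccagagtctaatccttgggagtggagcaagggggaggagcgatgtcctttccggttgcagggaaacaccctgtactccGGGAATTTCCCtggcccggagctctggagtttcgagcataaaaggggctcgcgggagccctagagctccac
Cxcl2 (chr5:90903649-90903898, plus strand): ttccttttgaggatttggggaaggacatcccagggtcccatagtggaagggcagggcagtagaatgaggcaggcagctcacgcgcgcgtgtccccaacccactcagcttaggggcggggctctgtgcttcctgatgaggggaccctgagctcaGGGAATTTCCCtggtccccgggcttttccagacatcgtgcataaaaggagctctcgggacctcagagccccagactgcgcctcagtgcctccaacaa
Cxcl3 (chr5:90785851-90786100, plus strand): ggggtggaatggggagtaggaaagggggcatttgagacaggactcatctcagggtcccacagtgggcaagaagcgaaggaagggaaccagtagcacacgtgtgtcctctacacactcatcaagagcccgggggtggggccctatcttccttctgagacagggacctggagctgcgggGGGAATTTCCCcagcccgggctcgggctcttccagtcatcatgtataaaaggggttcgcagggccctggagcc
Cxcl10 (chr5:92348890-92349139, minus strand): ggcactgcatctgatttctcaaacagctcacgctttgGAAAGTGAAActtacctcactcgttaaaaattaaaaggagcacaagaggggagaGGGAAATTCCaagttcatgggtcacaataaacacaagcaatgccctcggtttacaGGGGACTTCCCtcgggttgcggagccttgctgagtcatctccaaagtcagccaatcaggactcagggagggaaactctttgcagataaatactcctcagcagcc
Ccl17 (chr8:94810203-94810452, plus strand): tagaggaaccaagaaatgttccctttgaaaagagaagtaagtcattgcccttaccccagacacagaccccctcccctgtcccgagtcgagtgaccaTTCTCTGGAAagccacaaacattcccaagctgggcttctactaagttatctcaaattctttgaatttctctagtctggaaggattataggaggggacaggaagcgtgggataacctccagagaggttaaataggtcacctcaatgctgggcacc

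Cxcl1, Cxcl2 and Cxcl3 each held the same 11 bases, GGGAATTTCCC, which contain a pair of overlapping NF-kB matches, with the first base 71, 97 and 73 bases before the start. Those 11 bases occurred in 14 of 32851 promoters of that length (0.0426%). The 14 include Cxcl1, Cxcl2 and Cxcl3, from which the 11 bases were taken, so this share is no test. Cxcl10 held NF-kB matches whose first base lay 159, 104 and 103 bases before the start (the last pair overlap) and an interferon response core from 213 to 204 bases before it. Ccl17 held the STAT6 palindrome from 154 to 145 bases before its start, and a match to the GAS palindrome (TTC, 3 bases of any kind, GAA) from 99 to 91 that is left in lower case. The NF-kB consensus was found in 11 of the 46 members with a promoter, beside 7.25% of all 32851 promoters, the interferon response core in 3 (2.98% of all), the STAT6 palindrome in 1 (5.85%) and the GAS palindrome in 4 (7.02%). A member counts once if any of its promoters holds a match, while the shares of all are per promoter, so these are not like for like. A match describes letters and is no measurement of binding.

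Of the 60 members, 38 passed the filter on low counts in the peritoneal set and 32 in the bone marrow set, 31 of them in both, and 21 passed in neither. A gene that is high in a single group can pass. Against a group where it is near 0 it can only be called higher. 7 members had 0 counts in all 48 libraries (Ccl21a, Ccl21b, Ccl26, Ccl27b, Ccr1l1, Ccr8 and Ackr1). Cxcl13, which draws B cells, had 35.6 to 42.2 CPM in ascites vehicle libraries and 0 counts in all 36 bone marrow libraries, and Ccr6, Ccr9, Cxcr6, Ccl27a, Ackr3 and Xcr1 were likewise tested in the peritoneal set only. Ccr7, the receptor that takes dendritic cells to lymph nodes, was tested in the bone marrow set only. Ligands made up 0.430 to 0.453% of all counts in ascites vehicle libraries and 0.0636 to 0.0670% in thioglycollate, and receptors 0.0920 to 0.0987% and 0.0340 to 0.0360%. In the bone marrow set the ligand share of vehicle libraries ran from 0.158 to 0.171% in KO M0 to 0.748 to 0.893% in KO M1, with 0.674 to 0.774% in WT M1. In bulk RNA, fewer cells of a type and less RNA per cell cannot be told apart.

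Over the 12 bone marrow groups each gene had its own span of mean CPM (± SD, n = 3 for each mean). Of the CCR2 ligands, Ccl2 ranged from 4.04 ± 3.43 in KO M0 vehicle to 862 ± 134 in KO M1 AP-3-84, and Ccl7 ranged from 2.69 ± 1.71 in KO M0 vehicle to 814 ± 361 in KO M1 AP-3-84. Ccl12 ranged from 0.445 ± 0.411 in KO M0 vehicle to 105 ± 32.2 in KO M1 AP-3-84, and Ccl8 ranged from 0.0797 ± 0.138 in WT M0 vehicle to 149.9 ± 227 in WT M2 vehicle. KO M0 vehicle was the lowest group for Ccl2, Ccl7 and Ccl12. Of the ligands in the second chromosome 11 block, Ccl3 ranged from 22.7 ± 3.69 in WT M2 AP-3-84 to 1314 ± 351 in KO M1 vehicle, and Ccl4 ranged from 18.8 ± 4.61 in KO M0 vehicle to 528 ± 105 in KO M1 AP-3-84. Ccl5 ranged from 9.87 ± 5.59 in WT M0 vehicle to 4065 ± 255 in WT M1 vehicle. Ccl6 ranged from 192 ± 127 in KO M0 AP-3-84 to 2390.3 ± 896 in WT M2 vehicle, and Ccl9 ranged from 331 ± 74.7 in KO M0 AP-3-84 to 1742 ± 371 in WT M2 vehicle, with KO M0 AP-3-84 the lowest for both. Of the neutrophil attractants, Cxcl1 ranged from 0.470 ± 0.179 in KO M0 vehicle to 40.9 ± 29.1 in KO M1 vehicle, and Cxcl2 ranged from 13.8 ± 2.66 in KO M0 vehicle to 377 ± 107 in KO M1 AP-3-84. Cxcl3 ranged from 0.0842 ± 0.146 in KO M0 AP-3-84 to 18.5 ± 25.6 in WT M2 vehicle. Of the CXCR3 ligands, Cxcl9 ranged from 0 counts in WT M2 AP-3-84 to 4.01 ± 1.36 in WT M1 vehicle, and Cxcl10 ranged from 1.31 ± 1.60 in WT M2 AP-3-84 to 249 ± 83.1 in KO M1 AP-3-84. M2 groups were the highest for the CCR4 ligands and Ccl24. Ccl17 ranged from 0 counts in WT M0 AP-3-84 and KO M0 AP-3-84 to 102 ± 81.8 in WT M2 vehicle, and Ccl22 ranged from 0.335 ± 0.290 in WT M0 AP-3-84 to 57.6 ± 40.2 in WT M2 vehicle. Ccl24 ranged from 0.0841 ± 0.146 in KO M1 AP-3-84 to 520.2 ± 198 in KO M2 AP-3-84. Cxcl14, which draws monocytes and dendritic cells, ranged from 3.72 ± 1.48 in KO M2 AP-3-84 to 23.7 ± 3.09 in KO M0 vehicle. Cxcl16 ranged from 186 ± 20.7 in WT M2 AP-3-84 to 534 ± 62.3 in WT M1 AP-3-84, and Cx3cl1 ranged from 1.03 ± 0.371 in KO M2 AP-3-84 to 5.25 ± 1.75 in KO M0 vehicle.

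Among the receptors, Ccr1 ranged from 2.95 ± 2.95 in KO M0 AP-3-84 to 21.9 ± 8.23 in WT M2 AP-3-84, and Ccr2 ranged from 1.89 ± 1.52 in WT M1 AP-3-84 to 31.5 ± 4.38 in KO M0 vehicle. Ccr3 ranged from 0.287 ± 0.273 in KO M2 AP-3-84 to 12.6 ± 7.64 in WT M1 AP-3-84. Ccr7 ranged from 0 counts in WT M2 AP-3-84 to 2.49 ± 0.826 in KO M1 AP-3-84. Cxcr4 ranged from 3.54 ± 1.20 in WT M1 vehicle to 123 ± 21.4 in KO M0 vehicle, and Cx3cr1 ranged from 1.93 ± 1.09 in KO M2 vehicle to 307 ± 37.5 in WT M1 vehicle. KO M0 vehicle was the highest group for Ccr2 and Cxcr4. Ackr3, an atypical receptor that removes Cxcl12, had counts in KO M0 AP-3-84, KO M1 vehicle and KO M1 AP-3-84 alone and averaged at most 0.441 ± 0.764 there. Cxcl11, a CXCR3 ligand annotated as a pseudogene in this genome and so no member, was highest in KO M1 AP-3-84 at 5.23 ± 1.86 CPM.

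Tumour ascites macrophages carried far more chemokine RNA than thioglycollate macrophages. Of 38 members tested in vehicle libraries, 25 rose and 1 fell, and none of the 26 lost its call in any alternative. Some that rose, such as Ccl12, Cxcl10, Cxcl5, Ccl17 and Ccl22, had at most 3 counts over the thioglycollate vehicle libraries. They passed the filter on low counts through the ascites libraries and could only be called higher. The split of rises and falls, and the members' median, rest in part on such genes. Among all genes tested 20.3% were higher and 13.4% lower (33.7% called). Over the tested members the median log2 fold change was 2.26, and over all genes 0.05. With 1 member at 0 in a group set to the bound, it was 2.26. All 5 ligands of the second chromosome 11 block (Ccl3, Ccl4, Ccl5, Ccl6 and Ccl9), all 4 CXCR2 ligands, both tested CXCR3 ligands, both CCR4 ligands and 3 of 4 CCR2 ligands rose. The values of the 25 called genes shown do not overlap between the groups in the plot of ascites against thioglycollate levels. These genes were called on the same libraries, so this is no further support.

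**Figure D1:**
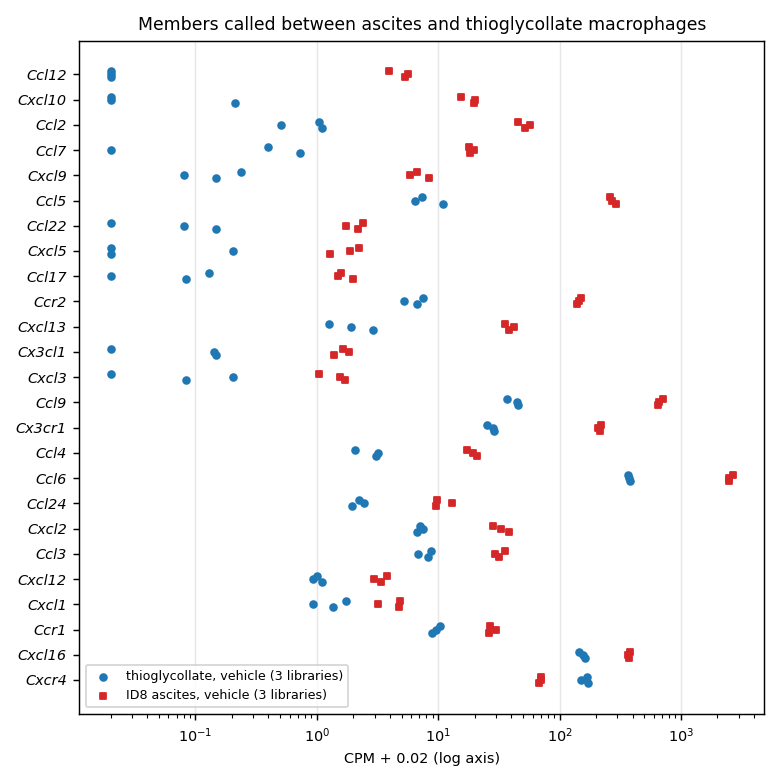
Level (CPM + 0.02, log axis) of 25 called members in the 3 thioglycollate (blue circles) and 3 ascites (red squares) vehicle libraries, ordered by fold change. Cxcr4 is the single gene whose ascites libraries sit to the left of the thioglycollate ones.

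Of the genes listed as CCR2 ligands (monocyte attractants), Ccl2, Ccl7 and Ccl12 were low in thioglycollate macrophages and Ccl8 was not. Ccl2 was at 51.5, 56.8 and 45.2 CPM in the ascites libraries and 1.09, 0.486 and 1.03 in the thioglycollate libraries (log2 fold change 5.87 ± 0.22, adjusted p = 9.97e-13). Ccl7 was at 18.3, 19.8 and 17.9 against 0.702, 0 and 0.380 CPM (log2 fold change 5.68 ± 0.46, and 6.50 ± 0.52 without thioglycollate library 1). Every ascites library stood above every thioglycollate library for both genes. Ccl12 had 5.33, 5.67 and 3.91 CPM in ascites and 0 counts in all 3 thioglycollate libraries, so it was at least 83.9-fold higher, taking 3 counts over the group as the floor (adjusted p = 2.9e-07). Ccl8, listed with the CCR2 ligands, overlapped, at 7.61, 7.64 and 6.84 against 11.9, 10.7 and 7.49 CPM (log2 fold change -0.45 ± 0.18, adjusted p = 0.0625). The receptor Ccr2, the mark of inflammatory monocytes, moved with Ccl2, Ccl7 and Ccl12, from 6.70, 5.22 and 7.54 CPM to 139, 143 and 149 in ascites (log2 fold change 4.46 ± 0.11, adjusted p = 4.03e-15).

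The 5 ligands of the second chromosome 11 block rose together. Ccl6 was at 2498, 2486 and 2698 against 378, 375 and 368 CPM (log2 fold change 2.78 ± 0.06, adjusted p = 9.89e-16), and Ccl9 at 652, 664 and 708 against 45.6, 44.5 and 37.1 (log2 fold change 3.99 ± 0.09, adjusted p = 1.31e-15). Ccl5, a T cell and monocyte attractant, was at 289, 273 and 259.6 CPM in ascites and 10.9, 6.38 and 7.38 in thioglycollate (log2 fold change 5.07 ± 0.16, adjusted p = 1.97e-11). The groups were far apart for all 3 genes relative to the spread inside each group. Ccl3 and Ccl4, the macrophage inflammatory proteins, rose by log2 fold changes of 2.01 ± 0.13 and 2.80 ± 0.17. Ccr1, a receptor for several of them, rose from 8.87, 9.53 and 10.3 to 26.4, 29.7 and 26.8 CPM (log2 fold change 1.53 ± 0.11).

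The interferon-inducible CXCR3 ligands, which draw activated T cells, were almost absent after thioglycollate. Cxcl10 was at 19.6, 20.1 and 15.5 CPM in ascites, against 0.192, 0 and 0 (3 counts in all), a ratio of 310.2 (counting interval 106 to 1507) with adjusted p = 6.71e-11. Its fitted log2 fold change of 8.10 ± 0.42 was 7.51 ± 0.44 and 11.27 ± 0.54 without thioglycollate library 3 and 1. Cxcl9 was at 8.33, 5.81 and 6.62 against 0.128, 0.0607 and 0.217 CPM (log2 fold change 5.57 ± 0.47, adjusted p = 4.02e-08). Cxcl13 rose from 2.87, 1.88 and 1.25 to 38.0, 42.2 and 35.6 CPM (log2 fold change 4.28 ± 0.21, adjusted p = 7.22e-11). The counting interval of each such ratio has a level of 95% and covers counting error only.

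The CXCR2 ligands, which draw neutrophils, were higher in ascites as well. Cxcl2 was at 38.5, 33.1 and 28.4 against 6.64, 7.53 and 7.11 CPM (log2 fold change 2.23 ± 0.19, adjusted p = 1.51e-07) and Cxcl1 at 4.73, 3.15 and 4.83 against 1.34, 0.911 and 1.74 (log2 fold change 1.66 ± 0.41, adjusted p = 0.0039). Cxcl5 rested on 3 counts in thioglycollate libraries (ratio 30.4 (counting interval 10.1 to 150.0)) and Cxcl3 on 4, so their sizes are loose. Cxcl3's log2 fold change of 4.02 ± 1.07 ran from 3.43 ± 1.15 to 5.26 ± 1.42 without thioglycollate library 3 or 2. Ccl17 moved from 4.66 to 5.44 on the log2 scale without thioglycollate library 3. Ccl22 moved from 4.96 to 5.85 without thioglycollate library 1. Cxcl5 moved from 4.74 to 7.91 without thioglycollate library 2. The CCR4 ligands Ccl17 and Ccl22, attractants of regulatory and Th2 T cells, also had 3 counts each in thioglycollate, with ratios of 28.0 (counting interval 9.28 to 138) and 35.0 (counting interval 11.7 to 172). Ccl24, an eosinophil attractant, rose from 1.92, 2.43 and 2.22 to 9.53, 12.9 and 9.82 CPM (log2 fold change 2.29 ± 0.26, adjusted p = 1.36e-06).

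Among the remaining members, Cxcl16, a membrane-bound ligand that also acts as a scavenger receptor, rose from 161, 155 and 145 to 374, 367 and 382 CPM (log2 fold change 1.29 ± 0.07, adjusted p = 1.23e-10), Cxcl12 from 1.09, 0.911 and 0.976 to 3.35, 2.96 and 3.80 (log2 fold change 1.76 ± 0.36, adjusted p = 0.000813) and Cx3cl1, on 4 thioglycollate counts, by a log2 fold change of 4.21 ± 0.78 (3.62 ± 0.78 without thioglycollate library 3). Its receptor Cx3cr1, high on monocytes that patrol vessels, was at 213, 206 and 222 against 28.9, 28.4 and 25.3 CPM (log2 fold change 2.96 ± 0.09, adjusted p = 9.76e-14). Cxcr4, the receptor for Cxcl12 that keeps cells in the marrow, was the single member that fell, from 173, 149 and 168 to 67.9, 70.1 and 70.5 CPM (log2 fold change -1.23 ± 0.07, adjusted p = 2.66e-10).

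12 tested members did not pass, among them Cxcr2 (60.8, 45.6 and 33.4 against 45.3, 47.4 and 45.9 CPM, adjusted p = 0.984), Cxcl14 (43.0 to 50.1 against 45.5 to 53.1 CPM, adjusted p = 0.471), Xcr1 (21.7 to 27.3 against 26.4 to 28.9 CPM, adjusted p = 0.422) and Ackr3 (0.597 to 1.38 against 0.702 to 1.57 CPM, adjusted p = 0.829). Xcr1 is known from cross-presenting dendritic cells, and the sum of 5 dendritic cell markers was 4.19 to 6.02 CPM in ascites (4 of 5 with counts, Cd209a at 0) and 3.32 to 3.80 in thioglycollate (5 of 5). Of these, Zbtb46 was at 3.01 to 4.61 against 0.911 to 1.34 CPM and Clec9a at 0.240 to 0.271 against 0.319 to 0.850. Markers of other cells differed between the groups: the summed CPM of 7 epithelial, mesothelial or ID8 markers was 210.0 to 247 in ascites (7 of 7 with counts, led by Krt18 at 67.2 to 77.1 and Krt8 at 45.7 to 56.8) and 2.55 to 4.66 in thioglycollate (5 of 7, Epcam and Msln at 0). The sum of 8 neutrophil markers was 64.0 to 69.4 against 177 to 195 CPM, with Ngp and Ltf at 0 in ascites and Camp, Ngp and Ly6g at 0 in thioglycollate. Fibroblast markers, 5 of 5 with counts in both groups, summed to 38.0 to 56.1 against 18.4 to 29.3 CPM, with no overlap, beside the rise of Cxcl12. Macrophage markers summed to 28832 to 30677 against 34346 to 34808 CPM. Their part in the chemokine differences was not tested.

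In bone marrow-derived macrophages, polarization was compared with M0 in vehicle libraries, within each genotype. The M1 and M2 comparisons of a genotype share its M0 libraries. Of 32 members tested, 8 were called for M1 and 13 for M2 in WT cells, and 24 for each in KO cells. The share of all genes called was 15.5% and 23.4% in WT and 44.5% and 38% in KO, so it was also higher in KO. Tests of the difference between genotypes follow the genotype comparison. The plot of vehicle levels shows 16 of these genes by library.

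**Figure D2:**
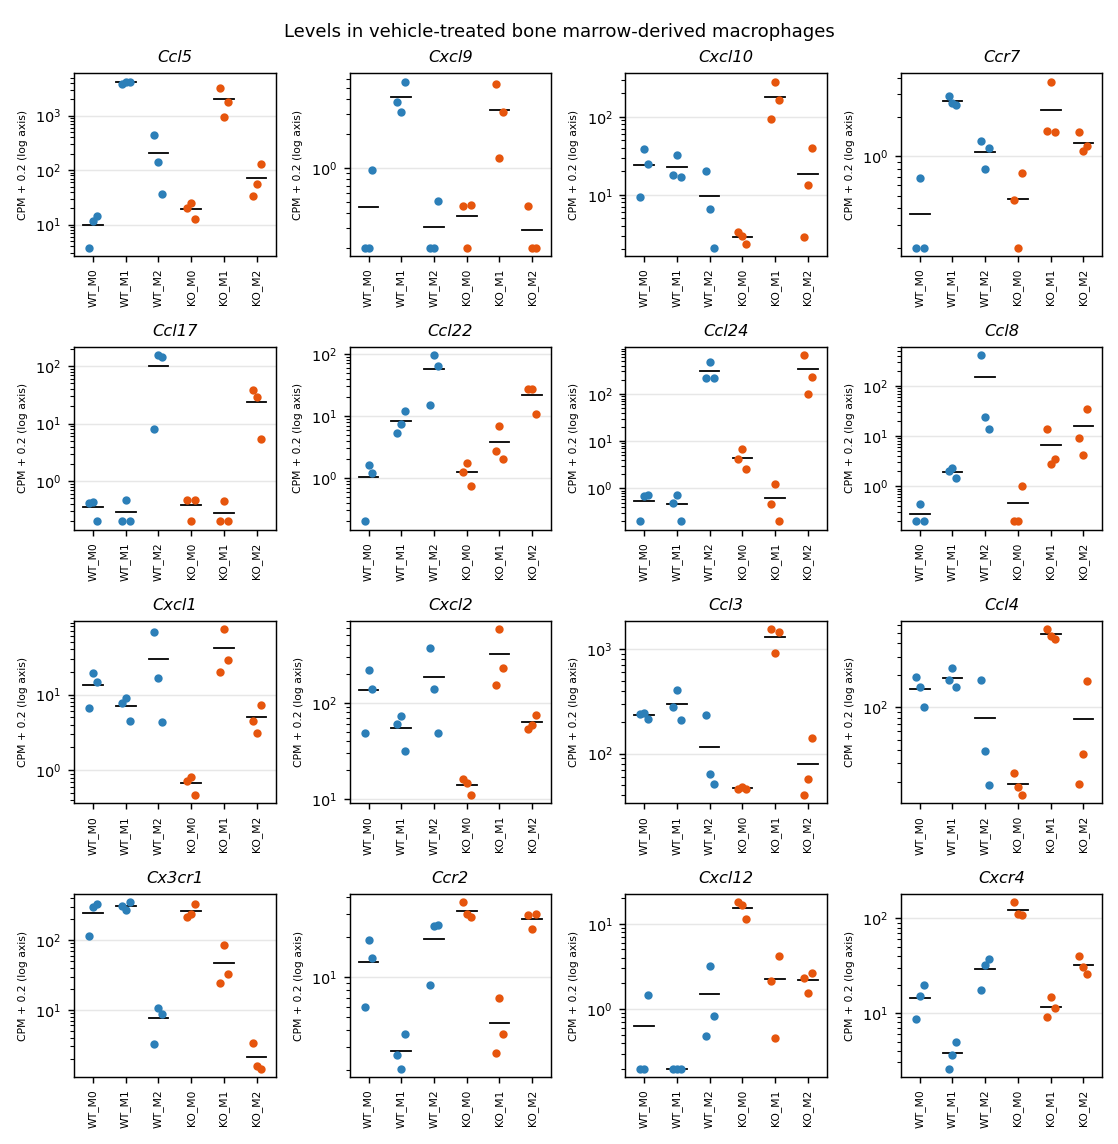
Level (CPM + 0.2, log axis) of 16 members in the 6 vehicle groups of bone marrow-derived macrophages (blue WT, orange KO); points are libraries 1, 2 and 3 from left to right and the line is the mean. Ccl5 is high in both M1 groups, and Ccl17, Ccl22 and Ccl24 in both M2 groups.

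WT M1 macrophages were set apart by Ccl5. It was at 3771, 4200.2 and 4224 CPM, against 3.59, 11.7 and 14.3 in WT M0 (log2 fold change 8.69 ± 0.88, adjusted p = 2.87e-07), and 7 members rose and 1 fell of 32 tested. Over all genes 8.01% were higher and 7.49% lower (15.5% called). Median log2 fold changes were 0.27 for the members and 0.00 for all genes. With 1 member at 0 in a group set to the bound, it was 0.27. Ccr7 had 2.68, 2.38 and 2.27 CPM against 0, 0.478 and 0 (2 counts in M0, ratio 15.3 (counting interval 3.84 to 132), adjusted p = 0.00508), and Cxcl9, the IFN-γ-induced CXCR3 ligand, had 3.58, 2.91 and 5.54 against 0, 0 and 0.767 (3 counts in M0, ratio 17.0 (counting interval 5.45 to 85.3), adjusted p = 0.00625). Cxcl3, Cxcl5, Ccl22 and Ccr1 rose by log2 fold changes of 3.41 ± 0.87, 3.63 ± 1.18, 3.28 ± 0.95 and 1.50 ± 0.49. Ccr2 fell, from 5.83, 18.9 and 13.8 to 2.38, 1.85 and 3.52 CPM (log2 fold change -2.28 ± 0.50, adjusted p = 0.00198). Macrophage markers summed to 44015 to 46963 CPM in WT M1 and 30428 to 38850.0 in WT M0, and neutrophil markers to 750.0 to 961 and 391 to 705, with counts for all 8 of each list, and their part was not tested. WT M1 libraries lay below all WT M0 libraries for Ccr2 and above them for each gene that rose.

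Several ligands known for induction by LPS did not pass in WT cells. Ccl2 was at 705, 837 and 489 CPM in WT M1 and 656, 93.2 and 50.6 in WT M0 (log2 fold change 1.34 ± 0.98, adjusted p = 0.4), with WT M0 library 1 inside the M1 range. Cxcl10 was at 17.6, 32.6 and 16.9 against 9.20, 38.5 and 24.8 CPM (log2 fold change -0.11 ± 0.67, adjusted p = 0.941), and Ccl3 and Ccl4 had log2 fold changes of 0.34 ± 0.45 and 0.35 ± 0.64 (adjusted p = 0.675 and 0.77). Ccl5, Ccr2 and Ccr7 kept their calls in every alternative. Ccl22, Ccr1 and Cxcl3 missed the threshold without WT M0 library 3, and Ccl22 and Ccr1 without WT M1 library 3. Ccl22 and Cxcl5 missed the threshold without WT M0 library 1, and Ccl22 and Cxcl9 without the libraries that stood apart. Ccr1 and Cxcl5 missed the threshold without WT M0 library 2 or WT M1 library 1 or 2, and Ccr1 with scaling by total counts (adjusted p = 0.0519 to 0.15 over all cases named). Ccl22 moved from 3.28 to 2.68 and Cxcl5 from 3.63 to 3.04 on the log2 scale without WT M0 library 1. Ccl22 moved from 3.28 to 3.96, Ccr7 from 3.68 to 6.21 and Cxcl3 from 3.41 to 4.05 without WT M0 library 2. Cxcl5 moved from 3.63 to 5.18 and Cxcl9 from 3.88 to 6.94 without WT M0 library 3. The count of called members fell from 8 to 5 without WT M0 library 3.

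WT cells given IL-4 with IL-13 rose in the CCR4 ligands Ccl17 and Ccl22 and in Ccl24, the single CCR3 ligand tested. Ccl24 was at 221, 472 and 223 CPM in WT M2 and 0, 0.478 and 0.511 in WT M0 (log2 fold change 9.76 ± 0.88, adjusted p = 1e-08), and Ccl22 at 15.0, 95.0 and 62.7 against 0, 1.43 and 1.02 (log2 fold change 6.11 ± 0.87, adjusted p = 9.59e-06). Ccl17 was at 7.79, 155 and 143 against 0.224, 0.239 and 0 CPM (2 counts in M0, ratio 619.8 (counting interval 171 to 5125), adjusted p = 8.8e-05). WT M2 library 1 was the lowest of its group for Ccl17 and Ccl22 by a wide margin, yet above every M0 library. The 5 dendritic cell markers summed to 5.29, 12.1 and 11.4 CPM in WT M2 (3 of 5 with counts, Clec9a and Siglech at 0, most of it Zbtb46 at 5.29 to 12.1) and 0, 0.956 and 0.256 in WT M0 (2 of 5, Flt3, Cd209a and Siglech at 0). WT M2 library 1 was the lowest of its group for them too, and their part in Ccl17 and Ccl22 was not tested. In all, 10 members rose and 3 fell of 32, where 12.7% of all genes were higher and 10.7% lower (23.4% called). The members' median log2 fold change was 0.71, beside 0.01 over all genes tested.

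The falls were in receptors and Cxcl14. Cx3cr1 was at 3.06, 10.6 and 8.55 CPM against 112, 293 and 325 (log2 fold change -5.05 ± 0.68, adjusted p = 5.58e-06), and Cxcr3 at 0.557, 0 and 0.317 against 7.40, 3.11 and 4.35 (3 counts in M2, 16.8 (counting interval 5.51 to 83.8) as the M0 to M2 ratio, adjusted p = 0.000919). Cxcl14 fell by a log2 fold change of -1.34 ± 0.42. Ccl9 rose modestly, to 2036, 1866 and 1325 from 987, 1053 and 862 CPM (log2 fold change 0.85 ± 0.19, adjusted p = 0.00144), and Ccl6 was at 3417, 1980.5 and 1773 against 1257, 396 and 319 (log2 fold change 1.86 ± 0.47). WT M2 library 1, which had the highest neutrophil marker sum of its group, was the highest for 4 further genes that rose. Ccl8 was at 412, 23.8 and 13.6 CPM against 0, 0.239 and 0 (1 count in M0, ratio 2000.3 (counting interval 359 to 79056), adjusted p = 5.93e-05). Its fitted log2 fold change of 10.38 ± 1.67 was 7.37 ± 1.35 without that library and 12.13 ± 2.42 without WT M0 library 2. Ccl5 was at 442, 139.6 and 37.0 (log2 fold change 4.40 ± 0.76, and 3.16 ± 0.68 without that library), Cxcl3 at 47.9, 6.33 and 1.27 and Cxcl5 at 31.4, 3.32 and 1.90. Cxcl3 overlapped its M0 group, and the part of the neutrophil markers in these values was not tested.

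Ccl17, Ccl22, Ccl24, Ccl9, Cx3cr1 and Cxcr3 kept their calls in every alternative. Ccl5, Ccl6, Ccl8 and Cxcl3 missed the threshold in a fit of the compared groups alone, and Ccr1, Cxcl3 and Cxcl5 without WT M2 library 1 or without the libraries that stood apart. Ccr1 and Cxcl14 missed the threshold without WT M0 library 3, and Ccr1 without WT M0 library 2. Cxcl14 missed the threshold without WT M2 library 2 (adjusted p = 0.055 to 0.278 over all cases named). Ccl22 moved from 6.11 to 5.50, Ccl6 from 1.86 to 2.74 and Cxcl5 from 4.82 to 4.24 on the log2 scale without WT M0 library 1. Ccl22 moved from 6.11 to 6.79 and Cxcl3 from 3.60 to 4.24 without WT M0 library 2. Cxcl3 moved from 3.60 to 1.32, Cxcl5 from 4.82 to 2.59 and Cxcr3 from -3.92 to -4.74 without WT M2 library 1. Cxcl5 moved from 4.82 to 6.37 without WT M0 library 3.

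In p53 KO cells M1 polarization raised a broad set of inflammatory ligands. 17 members rose and 7 fell of 32, where 22.8% of all genes were higher and 21.8% lower (44.5% called). Over the tested members the median log2 fold change was 1.75, and over all genes -0.01. All 4 CXCR2 ligands, both tested CXCR3 ligands, 3 of 4 CCR2 ligands and 4 of the 5 ligands Ccl3, Ccl4, Ccl5, Ccl6 and Ccl9 rose. Ccl2 was at 834, 873 and 851 CPM in KO M1 and 4.19, 7.39 and 0.541 in KO M0 (log2 fold change 7.74 ± 1.40, adjusted p = 9.25e-05), Ccl7 at 273, 857 and 335 against 2.10, 4.62 and 1.35 (log2 fold change 7.52 ± 1.56, adjusted p = 0.000415) and Ccl12 at 60.2, 96.2 and 75.0 against 0.524, 0 and 0.811 (log2 fold change 7.28 ± 1.69, adjusted p = 0.00119). No KO M0 library came near an M1 library for these 3 genes.

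Ccl5 was at 3267, 939 and 1795 CPM against 20.2, 24.9 and 12.7 (log2 fold change 6.70 ± 0.81, adjusted p = 5.79e-07), Ccl3 at 1562, 912 and 1469 against 46.1, 47.4 and 45.4 (log2 fold change 4.83 ± 0.53, adjusted p = 1.7e-07) and Ccl4 at 547, 473 and 441 against 23.8, 17.5 and 14.9 (log2 fold change 4.69 ± 0.76, adjusted p = 2.4e-05). Cxcl10 was at 93.4, 283 and 164 against 3.14, 2.77 and 2.16 CPM (log2 fold change 6.05 ± 0.85, adjusted p = 3.98e-06). The neutrophil attractants Cxcl1 (20.1, 74.2 and 28.6 against 0.524, 0.616 and 0.270 CPM, log2 fold change 6.36 ± 0.92) and Cxcl2 (152, 586 and 232 against 16, 14.5 and 10.8 CPM, log2 fold change 4.55 ± 0.65) were highest in KO M1 library 2, without which the log2 fold changes were 5.63 ± 0.90 and 3.81 ± 0.62. Cxcl3, Cxcl5, Cxcl9 and Ccr7 had 2 or 3 counts in KO M0, with ratios of 66.9 (counting interval 18.2 to 557), 28.1 (counting interval 7.46 to 237), 16 (counting interval 4.13 to 138) and 7.43 (counting interval 2.27 to 38.4). Neutrophil markers summed to 1859, 1565 and 2757 CPM in KO M1 and 667, 813 and 664 in KO M0, with Ly6g at 0 in KO M0, and macrophage markers to 16316, 25726 and 16982 and 32522, 37372 and 39143 (8 of 8 with counts in both). The part of either list was not tested.

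The 7 falls were in 3 receptors and 4 ligands, while 4 receptors (Ccr1, Ccr3, Ccr7 and Cxcr2) were among the rises. Ccr2 fell from 36.4, 29.9 and 28.1 to 2.47, 6.83 and 3.57 CPM (log2 fold change -2.86 ± 0.45, adjusted p = 8.55e-06), Cxcr4 from 147, 111 and 109.8 to 8.79, 14.4 and 11.2 (log2 fold change -3.41 ± 0.74, adjusted p = 0.00057) and Cx3cr1 from 216, 233 and 327 to 24.4, 85.1 and 31.9 (log2 fold change -2.45 ± 0.57, adjusted p = 0.00111). Cxcl12, the stromal ligand of Cxcr4, fell from 17.6, 16.3 and 11.1 to 1.92, 0.253 and 4.02 CPM (log2 fold change -2.82 ± 0.77, adjusted p = 0.00421), and Cxcl14, Cx3cl1 and Ccl24 fell by log2 fold changes of -2.00 ± 0.43, -2.02 ± 0.65 and -3.24 ± 1.19. Each of the 7 was lower in every KO M1 library than in any KO M0 library. Fibroblast markers, of which 5 of 5 had counts, summed to 161 to 288 CPM in KO M0 and 89.9 to 123 in KO M1, and their part in Cxcl12, a gene fibroblasts make, was not tested. 18 of the 24 calls stood in every alternative. Ccl24, Ccr1, Ccr3, Cx3cl1 and Cxcr2 missed the threshold without KO M1 library 3, and Ccl24, Ccr1 and Ccr3 without KO M0 library 2. Ccl24 and Ccr3 missed the threshold without KO M1 library 1, and Ccr1 and Ccr3 without KO M0 library 3. Ccr1 and Ccr7 missed the threshold without KO M1 library 2, and Cxcr2 without KO M0 library 1 (adjusted p = 0.0573 to 0.202 over all cases named). Ccl12 moved from 7.28 to 7.95, Ccr7 from 2.77 to 3.62 and Cxcl5 from 4.59 to 7.32 on the log2 scale without KO M0 library 3. Ccl2 moved from 7.74 to 8.47 and Ccl7 from 7.52 to 8.12 without KO M0 library 2. Ccl24 moved from -3.24 to -4.75, Ccl7 from 7.52 to 6.85, Ccr7 from 2.77 to 2.18, Cx3cr1 from -2.45 to -3.18, Cxcl3 from 5.84 to 4.89 and Cxcl5 from 4.59 to 3.70 without KO M1 library 2. Ccl24 moved from -3.24 to -2.62 and Cxcl12 from -2.82 to -3.76 without KO M1 library 3. Ccr3 moved from 2.86 to 3.69 without KO M0 library 1. Cxcl9 moved from 3.81 to 3.21 without KO M1 library 1.

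KO M2 macrophages rose in the CCR4 ligands, in Ccl24 and in Ccl2, Ccl7, Ccl12 and Ccl8, listed as CCR2 ligands. 17 members rose and 7 fell of 32, where 20.1% of all genes were higher and 18% lower (38% called). Median log2 fold changes were 1.62 for the members and 0.02 for all genes. Ccl24 was at 665, 98.9 and 230.2 CPM against 3.93, 6.46 and 2.43 (log2 fold change 6.28 ± 0.66, adjusted p = 8.85e-08), Ccl22 at 26.8, 27.0 and 10.7 against 1.05, 1.54 and 0.541 (log2 fold change 4.35 ± 0.88, adjusted p = 0.000342) and Ccl17 at 37.7, 28.6 and 5.21 against 0.262, 0 and 0.270 (2 counts in M0, ratio 127 (counting interval 35.0 to 1058), adjusted p = 0.00164). Ccl9 rose to 1643, 1027 and 883 from 413, 464 and 409 CPM (log2 fold change 1.47 ± 0.20, adjusted p = 7.22e-07). The groups did not overlap for these 4 ligands. Dendritic cell markers summed to 7.96, 3.60 and 0.744 CPM in KO M2 libraries 1, 2 and 3 and 1.05, 0.308 and 2.43 in KO M0 (3 of 5 with counts in both, Clec9a and Cd209a at 0), with the order of the KO M2 libraries the same as for Ccl17, and their part was not tested.

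The CCR2 ligands varied widely among the KO M2 libraries: Ccl2 was at 38.2, 221 and 675 CPM against 4.19, 7.39 and 0.541 (log2 fold change 6.29 ± 1.34, adjusted p = 0.000709, and 5.03 ± 1.31 without KO M2 library 3). Ccl7 was at 57.6, 227 and 969 CPM (log2 fold change 7.30 ± 1.56, adjusted p = 0.0007, and 5.75 ± 1.49 without that library) and Ccl12 at 5.57, 44.1 and 169 (log2 fold change 7.20 ± 1.69, adjusted p = 0.0017, and 5.67 ± 1.75). KO M2 library 3 was the highest for all 3 genes and for Ccl4 (18.8, 36.5 and 177), Ccl5 (32.9, 55.0 and 128), Ccl8 (9.02, 4.05 and 35.0) and Cxcl10 (2.65, 13.1 and 39.4). The same library had the highest neutrophil marker sum of its group and the lowest macrophage marker sum of all 36 bone marrow libraries (18476, 9411 and 5969.9 CPM in KO M2 and 32522, 37372 and 39143 in KO M0, 8 of 8 with counts), the part of which was not tested. Without that library 13 members, not 24, were called (log2 fold change of Ccl4 0.57 ± 0.66, of Ccl5 1.20 ± 0.73, of Ccl8 4.38 ± 1.85 and of Cxcl10 1.57 ± 0.92).

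Cx3cr1 fell furthest, from 216, 233 and 327 to 3.18, 1.35 and 1.24 CPM (log2 fold change -7.07 ± 0.79, adjusted p = 2.29e-07). Cxcr3, with 0.796, 0.225 and 0 against 3.93, 3.69 and 5.41 CPM, had a log2 fold change of -3.60 ± 0.82, Cxcl12 of -2.90 ± 0.78, Cxcl14 of -2.18 ± 0.43 and Cxcr4 of -1.95 ± 0.67. Fibroblast markers were at 47.5 to 78.6 CPM in KO M2 against 161 to 288 in KO M0 beside the fall of Cxcl12, and their part was not tested. 12 of the 24 calls stood in every alternative. Ccl4, Ccl5, Ccl8, Ccr1, Cx3cl1, Cxcl1, Cxcl10, Cxcl16, Cxcl3, Cxcr2 and Cxcr4 missed the threshold without KO M2 library 3, and Ccl4, Ccl5, Ccr1, Cxcl1, Cxcl10, Cxcl16 and Cxcl3 without KO M0 library 3. Ccl5, Ccl6, Cxcl1, Cxcl3, Cxcr2 and Cxcr4 missed the threshold without KO M0 library 1, and Ccl4, Ccl5, Ccr1, Cxcl16 and Cxcl3 without KO M0 library 2. Ccl4, Cxcl10 and Cxcl16 missed the threshold in a fit of the compared groups alone, and Cxcl16, Cxcl3 and Cxcr4 without KO M2 library 2. Ccl6 missed the threshold without KO M2 library 1 (adjusted p = 0.05 to 0.555 over all cases named). Ccl12 moved from 7.20 to 7.85 and Ccl8 from 5.68 to 8.91 on the log2 scale without KO M0 library 3. Ccl2 moved from 6.29 to 7.00 without KO M0 library 2. Ccl24 moved from 6.28 to 5.28, Cxcl16 from -0.69 to -1.31 and Cxcr3 from -3.60 to -4.86 without KO M2 library 1. Cxcl14 moved from -2.18 to -2.98 without KO M2 library 2.

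KO macrophages were then compared with WT in each state, to ask what loss of p53 goes with. In M0 vehicle libraries 6 members rose and 10 fell in KO relative to WT, of 32, where 16.4% of all genes were higher and 16.8% lower (33.2% called). The members' median log2 fold change was -0.05, beside 0.03 over all genes tested. The falls were in 9 ligands and 1 receptor, Ccr3. Ccl3 was at 46.1, 47.4 and 45.4 CPM in KO and 242, 246 and 215 in WT (log2 fold change -2.34 ± 0.49, adjusted p = 0.000741), Ccl4 at 23.8, 17.5 and 14.9 against 192, 155 and 101 (log2 fold change -2.99 ± 0.72, adjusted p = 0.00253) and Ccl9 at 413, 464 and 409 against 987, 1053 and 862 (log2 fold change -1.17 ± 0.19, adjusted p = 3.09e-05). All KO libraries lay below all WT libraries for these 3 ligands.

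Cxcl1 was at 0.524, 0.616 and 0.270 CPM in KO and 6.51, 18.9 and 14.3 in WT (log2 fold change -4.73 ± 0.98, adjusted p = 0.00061), Cxcl2 at 16, 14.5 and 10.8 against 48.7, 219 and 139.8 (log2 fold change -3.30 ± 0.63, adjusted p = 0.000325) and Cxcl10 at 3.14, 2.77 and 2.16 against 9.20, 38.5 and 24.8 (log2 fold change -3.14 ± 0.86, adjusted p = 0.00654). These 3 genes hold the NF-kB matches printed above. Of the other genes that fell, Ccl9 and Ccr3 also hold a match, Ccl3 and Ccl12 hold none, and Ccl2, Ccl4 and Ccl7 had no promoter matched. A link between the matches and the falls was not tested. Cxcl3, which holds the same 11 bases as Cxcl1 and Cxcl2, was at 0.262, 0 and 0.270 against 1.57, 2.63 and 0.256 CPM and did not pass (log2 fold change -2.81 ± 1.57, adjusted p = 0.17). The CCR2 ligands were uneven in WT M0, with library 1 far above its mates. Ccl2 was at 4.19, 7.39 and 0.541 CPM against 656, 93.2 and 50.6 (log2 fold change -6.07 ± 1.34, adjusted p = 0.00128, and -4.18 ± 1.24 without WT M0 library 1) and Ccl7 at 2.10, 4.62 and 1.35 against 579.7, 57.1 and 26.6 (log2 fold change -6.38 ± 1.53, adjusted p = 0.00253, and -3.99 ± 1.43). Ccl12 had 0.524, 0 and 0.811 against 35.7, 5.50 and 2.04 CPM (log2 fold change -4.88 ± 1.88, and -2.96 ± 2.30 without that library).

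Cxcr4 and its ligand Cxcl12 were both higher in KO M0. Cxcr4 was at 147, 111 and 109.8 CPM in KO and 8.52, 14.8 and 19.4 in WT (log2 fold change 3.11 ± 0.72, adjusted p = 0.00187). Cxcl12 was at 17.6, 16.3 and 11.1 against 0, 0 and 1.28 (log2 fold change 5.10 ± 0.95, adjusted p = 0.000184, from 4.51 ± 1.03 to 8.82 ± 1.51 without WT M0 library 1 or 3). Ccr2 (36.4, 29.9 and 28.1 against 5.83, 18.9 and 13.8 CPM, log2 fold change 1.30 ± 0.41) rose, as did Ccl24 (3.93, 6.46 and 2.43 against 0, 0.478 and 0.511 CPM, log2 fold change 3.59 ± 1.23) and Ccl25 (log2 fold change 1.27 ± 0.47), while Ccr3 fell (log2 fold change -2.76 ± 1.06, and -3.58 ± 1.37 without KO M0 library 1). 5 fibroblast markers summed to 161 to 288 CPM in KO M0 (5 of 5 with counts) and 22.5 to 26.2 in WT M0 (4 of 5, Pdgfra at 0), and 8 neutrophil markers to 664 to 813 (Ly6g at 0) and 391 to 705, beside the rise of Cxcl12 and the falls above. Their part was not tested. 8 of the 16 calls stood in every alternative. Ccl12, Ccl24, Ccl25, Ccr2 and Ccr3 missed the threshold without WT M0 library 1 or without the libraries that stood apart, and Ccl12, Ccl24, Ccl25 and Ccr3 without KO M0 library 2. Ccl12, Ccl25, Ccr2 and Ccr3 missed the threshold without KO M0 library 1, and Ccl12, Ccl25 and Ccr3 without KO M0 library 3. Ccl2 and Ccl7 missed the threshold in a fit of the compared groups alone, and Ccl24 and Ccl25 without WT M0 library 2. Ccl25 and Ccr3 missed the threshold without WT M0 library 3, and Ccl12 with the replicate block. Ccl25 missed the threshold with no filter on low counts, and Ccr3 with scaling by total counts (adjusted p = 0.0501 to 0.377 over all cases named). Ccl12 moved from -4.88 to -5.53 on the log2 scale without KO M0 library 3. Ccl2 moved from -6.07 to -6.77 without KO M0 library 2. Ccl24 moved from 3.59 to 3.01 without WT M0 library 1.

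**Figure D3:**
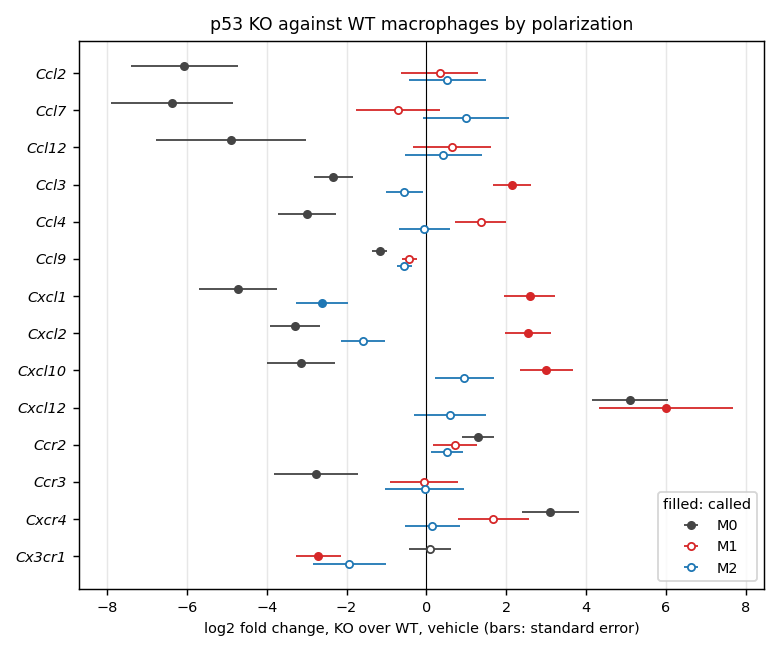
Log2 fold change of KO over WT (x axis, bars are the standard error) for 14 members in M0 (dark grey), M1 (red) and M2 (blue) vehicle libraries; filled points were called. Ccl3, Cxcl1, Cxcl2 and Cxcl10 lie left of 0 in M0 and right of 0 in M1.

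After M1 polarization the sign was the opposite for several of these ligands, as the plot of KO over WT shows. Of 32 members 5 rose and 1 fell in KO M1, where 5.93% of all genes were higher and 5.71% lower (11.6% called). Over the tested members the median log2 fold change was 0.02, and over all genes 0.00. With 1 member at 0 in a group set to the bound, it was 0.02. Ccl3 was at 1562, 912 and 1469 CPM in KO and 281, 402 and 208 in WT (log2 fold change 2.15 ± 0.47, adjusted p = 0.00447), and Cxcl10 at 93.4, 283 and 164 against 17.6, 32.6 and 16.9 (log2 fold change 3.01 ± 0.67, adjusted p = 0.00522). Cxcl1 was at 20.1, 74.2 and 28.6 against 7.45, 8.74 and 4.28 CPM (log2 fold change 2.58 ± 0.63, and 1.86 ± 0.63 without KO M1 library 2) and Cxcl2 at 152, 586 and 232 against 60.2, 73.4 and 31.7 (log2 fold change 2.55 ± 0.58, and 1.83 ± 0.56). Every KO library stood above every WT library for these 4. Cxcl12 had 1.92, 0.253 and 4.02 CPM in KO and 0 counts in all 3 WT M1 libraries, at least 7.97-fold higher with the floor of 3 counts over the group.

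Cx3cr1 was the single member that fell, at 24.4, 85.1 and 31.9 CPM in KO M1 and 306, 270.2 and 345 in WT M1 (log2 fold change -2.70 ± 0.57, adjusted p = 0.00348, and -3.42 ± 0.66 without KO M1 library 2). Neutrophil markers summed to 1859, 1565 and 2757 CPM in KO M1 and 839, 961 and 750.0 in WT M1, fibroblast markers to 89.9 to 123 and 16.6 to 41.9, and macrophage markers to 16316, 25726 and 16982 and 44015, 46024 and 46963, with counts for all markers of the 3 lists in both groups. Their part was not tested. Cxcl1 and Cxcl12 missed the threshold without WT M1 library 3, and Cxcl12 without WT M1 library 1 or 2 or KO M1 library 3. Cxcl2 missed the threshold in a fit of the compared groups alone (adjusted p = 0.0522 to 0.115 over all cases named).

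In M2 cells Cxcl1 fell in KO. In all, 1 member rose and 1 fell of 32, where 1.21% of all genes were higher and 2.34% lower (3.56% called). An unadjusted edgeR p under 0.05 was found for 12 of 32 members and for 2276 of all 11779 genes. Median log2 fold changes were -0.14 for the members and 0.01 for all genes. Cxcl1 was at 4.25, 2.93 and 7.19 CPM in KO and 67.6, 16.3 and 4.12 in WT (log2 fold change -2.62 ± 0.65, adjusted p = 0.022, and -1.11 ± 0.58 without WT M2 library 1), and its groups overlapped. Macrophage markers summed to 18476, 9411 and 5969.9 CPM in KO M2 and 30027, 24997 and 30977 in WT M2, and their part was not tested. Cxcl1 missed the threshold without WT M2 library 1 or KO M2 library 2 or 3, in a fit of the compared groups alone or without the libraries that stood apart (adjusted p = 0.0658 to 0.363 over all cases named). The number of called members ran from 0, without KO M2 library 3, through 1 without KO M2 library 2 and 4 without KO M2 library 1 or WT M2 library 2, to 5 without WT M2 library 3.

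Whether polarization acted differently in the genotypes was tested as an interaction, the KO fold change minus the WT fold change on the log2 scale. For M1, the log2 change was higher in KO for 8 members and lower for 1, as it was for 11.2% and 9.51% of all genes (20.7% called). Cxcl1 led with 7.32 ± 1.15 (adjusted p = 5.72e-05), then Ccl2 with 6.40 ± 1.64 (adjusted p = 0.00696), Cxcl10 with 6.15 ± 1.08 (adjusted p = 0.000223) and Cxcl2 with 5.85 ± 0.85 (adjusted p = 3.15e-05). Ccl3 and Ccl4 differed by 4.48 ± 0.68 and 4.34 ± 0.96, and Cx3cr1 by -2.79 ± 0.77. These differences use the same M0 vehicle libraries as the comparison of KO M0 with WT M0. Ccl2, Ccl7, Ccl9 and Cx3cr1 missed the threshold without the libraries that stood apart, and Ccl7 and Ccl9 without WT M0 library 1, WT M1 library 1 or 3, KO M0 library 1 or 3 or KO M1 library 2. Ccl7 missed the threshold without KO M0 library 2 or in a fit of the compared groups alone, and Ccl9 without WT M0 library 2, WT M1 library 2 or KO M1 library 3 or with the replicate block (adjusted p = 0.0523 to 0.235 over all cases named). Ccl2 moved from 6.40 to 4.52 and Ccl7 from 5.67 to 3.27 on the log2 scale without WT M0 library 1. Ccl2 moved from 6.40 to 7.12 and Ccl7 from 5.67 to 6.26 without KO M0 library 2. Ccl7 moved from 5.67 to 5.00, Cx3cr1 from -2.79 to -3.49, Cxcl1 from 7.32 to 6.60 and Cxcl2 from 5.85 to 5.14 without KO M1 library 2.

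For M2, it was higher in KO for 5 members and lower for 3, as for 13.9% and 13.2% of all genes (27.1% called). Ccl7 and Ccl2 differed by 7.37 ± 1.87 (adjusted p = 0.0055) and 6.59 ± 1.65 (adjusted p = 0.00484), and Cxcl12 by -4.51 ± 1.36 (adjusted p = 0.0151). Ccl2, Ccl3, Ccl4, Ccl7, Cxcl10 and Cxcl16 missed the threshold in a fit of the compared groups alone, and Ccl3, Ccl4, Cxcl10, Cxcl16 and Cxcr4 without KO M2 library 3. Ccl3, Ccl4, Cxcl12 and Cxcl16 missed the threshold without WT M2 library 2, and Ccl3, Ccl4, Cxcl16 and Cxcr4 without WT M0 library 1 or WT M2 library 3. Ccl3, Ccl4 and Cxcl16 missed the threshold without KO M0 library 2 or 3, and Ccl3, Cxcl16 and Cxcr4 without WT M0 library 2. Cxcl16 and Cxcr4 missed the threshold without KO M2 library 2, and Ccl3 without WT M0 library 3 or KO M0 library 1 or with the replicate block. Cxcl16 missed the threshold without WT M2 library 1, with scaling by total counts or without the libraries that stood apart (adjusted p = 0.0502 to 0.248 over all cases named). Ccl2 moved from 6.59 to 4.71, Ccl7 from 7.37 to 4.98 and Cxcl12 from -4.51 to -3.92 on the log2 scale without WT M0 library 1. Ccl2 moved from 6.59 to 8.69, Ccl3 from 1.78 to 2.81, Ccl4 from 2.94 to 4.42, Ccl7 from 7.37 to 9.72 and Cxcl10 from 4.10 to 5.29 without WT M2 library 1. Ccl2 moved from 6.59 to 7.30 without KO M0 library 2. Ccl2 moved from 6.59 to 5.34, Ccl3 from 1.78 to 1.07, Ccl4 from 2.94 to 1.47, Ccl7 from 7.37 to 5.83 and Cxcl10 from 4.10 to 2.91 without KO M2 library 3. Cxcl12 moved from -4.51 to -8.23 without WT M0 library 3. Cxcl12 moved from -4.51 to -3.03 without WT M2 library 2. Cxcl16 moved from -0.89 to -1.51 without KO M2 library 1.

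AP-3-84 was tested against DMSO within each of the 8 populations. It gave member calls in ascites, thioglycollate, WT M2 and KO M0 macrophages and none in the other 4 populations, as the map of responses shows. The populations differ in depth and spread, so a call in one and not in another does not show a difference; tests of the difference follow.

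**Figure D4:**
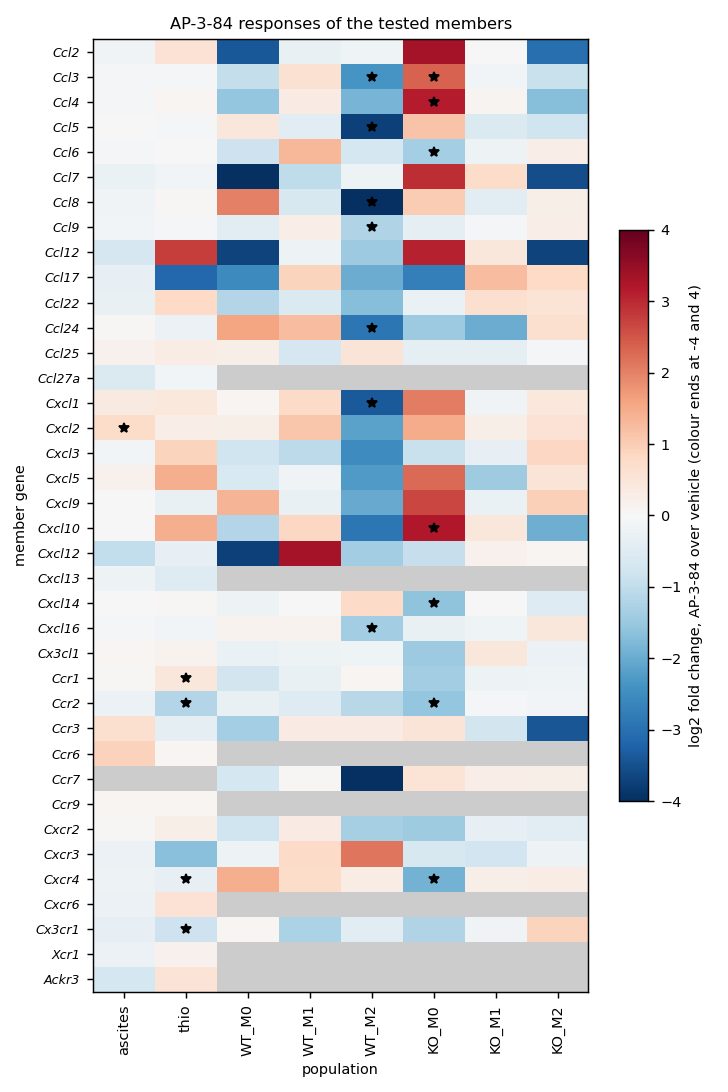
Log2 fold change of AP-3-84 over vehicle (colour, ends at -4 and 4) for 38 tested members (rows) in 8 populations (columns); a star marks a called value and grey a gene that was not tested. Stars fall in the ascites, thioglycollate, WT M2 and KO M0 columns.

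In unpolarized KO macrophages Ccl3, Ccl4 and Cxcl10 rose with AP-3-84 and 5 members fell, of 32. Over all genes 12.1% were higher and 8.57% lower (20.7% called). The members' median log2 fold change was -0.33, beside -0.03 over all genes tested. Ccl3 was at 248, 349 and 115 CPM with AP-3-84 and 46.1, 47.4 and 45.4 with vehicle (log2 fold change 2.36 ± 0.49, adjusted p = 0.00125). Ccl4 was at 193, 224 and 82.1 against 23.8, 17.5 and 14.9 (log2 fold change 3.15 ± 0.72, adjusted p = 0.00306) and Cxcl10 at 35.4, 28.4 and 11.1 against 3.14, 2.77 and 2.16 (log2 fold change 3.20 ± 0.86, adjusted p = 0.0098). AP-3-84 library 3 was the lowest of its group for the 3 ligands and still above all vehicle libraries, and the 3 calls stood in every alternative. The vehicle libraries here are those compared with WT M0 above, where the same 3 ligands were lower in KO.

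The falls were in receptors and 2 ligands. Ccr2 was at 9.09, 7.65 and 15.6 CPM against 36.4, 29.9 and 28.1 (log2 fold change -1.55 ± 0.41, adjusted p = 0.00796) and Cxcl14 at 4.29, 3.21 and 15.9 against 21.0, 23.1 and 27.0 (log2 fold change -1.61 ± 0.42, adjusted p = 0.00605, and -2.65 ± 0.43 without AP-3-84 library 3). Cxcr4 was at 4.80, 1.73 and 93.4 CPM against 147, 111 and 109.8 (log2 fold change -1.89 ± 0.67, adjusted p = 0.0478), where AP-3-84 library 3 stayed near the vehicle level. Without that library Cxcr4 fell by 5.22 ± 0.47 and Ccl6 (124, 113 and 338 against 425, 504 and 556 CPM, log2 fold change -1.37 ± 0.46) by 2.06 ± 0.50 on the log2 scale. Fibroblast markers summed to 133, 50.6 and 223 CPM with AP-3-84 and 276, 288 and 161 with vehicle (5 of 5 with counts in both), and neutrophil markers to 336, 328 and 574 and 667, 813 and 664 (Ly6g at 0 in vehicle); their part was not tested.

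Ccl2, Ccl7 and Ccl12 had higher values with AP-3-84 in each KO M0 library but did not pass: Ccl2 was at 30.6, 66.8 and 22.0 CPM against 4.19, 7.39 and 0.541 (log2 fold change 3.33 ± 1.31, adjusted p = 0.0735), and Ccl7 and Ccl12 had log2 fold changes of 2.95 ± 1.57 and 3.07 ± 2.24 (adjusted p = 0.189 and 0.352). Ccl6, Ccr2, Cxcl14 and Cxcr4 missed the threshold without AP-3-84 library 2, and Ccl6, Cxcl14 and Cxcr4 without AP-3-84 library 1 or in a fit of the compared groups alone. Ccl6 and Cxcr4 missed the threshold without vehicle library 1, 2 or 3, and Cxcr4 with scaling by total counts (adjusted p = 0.0507 to 0.391 over all cases named). Of the 8 calls, 5 were left without vehicle library 1 or 2, 4 without AP-3-84 library 1 and 3 without AP-3-84 library 2, while 11 members were called without AP-3-84 library 3, the one that stood apart, and 13 without that and the other libraries that stood apart.

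In WT M2 macrophages 7 members fell with AP-3-84 and none rose, where 0.229% of all genes were higher and 0.976% lower (1.21% called). Over the tested members the median log2 fold change was -1.39, and over all genes 0.00. With 1 member at 0 in a group set to the bound, it was -1.39. Ccl9 was at 759.9, 749 and 781 CPM with AP-3-84 and 2036, 1866 and 1325 with vehicle (log2 fold change -1.19 ± 0.19, adjusted p = 0.000774), and Cxcl16 at 176, 172 and 209.6 against 527, 488 and 433 (log2 fold change -1.38 ± 0.24, adjusted p = 0.00171). These 2 calls stood in every alternative. Ccl24, the M2 ligand, was at 28.7, 35.9 and 57.8 against 221, 472 and 223 CPM (log2 fold change -2.90 ± 0.52, adjusted p = 0.00351), with no overlap.

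Vehicle library 1 was the highest of its group for the other 4 ligands that fell, and their fold changes were smaller without it. Ccl8 was at 1.54, 1.07 and 3.61 CPM against 412, 23.8 and 13.6 (log2 fold change -6.15 ± 1.17, adjusted p = 0.00622, and -3.16 ± 0.91 without that library), and Ccl5 at 16.4, 19.6 and 10.6 against 442, 139.6 and 37.0 (log2 fold change -3.73 ± 0.73, adjusted p = 0.00773, and -2.52 ± 0.67). Cxcl1 was at 3.09, 3.48 and 1.95 against 67.6, 16.3 and 4.12 (log2 fold change -3.36 ± 0.71, adjusted p = 0.0114, and -1.85 ± 0.62) and Ccl3 at 26.9, 19.8 and 21.4 against 235, 63.3 and 50.7 (log2 fold change -2.36 ± 0.50, adjusted p = 0.0144, and -1.34 ± 0.44). Neutrophil markers summed to 4310.3, 628 and 505 CPM with vehicle and 727, 567 and 259.9 with AP-3-84 (Ly6g at 0), and dendritic cell markers to 5.29, 12.1 and 11.4 and 3.40, 5.09 and 4.45 (3 of 5 and 1 of 5 with counts), whose part was not tested. Ccl17 (3.40, 9.92 and 63.6 against 7.79, 155 and 143 CPM, adjusted p = 0.311) and Ccl22 (5.56, 7.77 and 39.5 against 15.0, 95.0 and 62.7 CPM, adjusted p = 0.216) did not pass. Ccl24, Ccl3, Ccl5, Ccl8 and Cxcl1 missed the threshold without AP-3-84 library 1 or in a fit of the compared groups alone, and Ccl3, Ccl5, Ccl8 and Cxcl1 without vehicle library 1 or AP-3-84 library 2 or without the libraries that stood apart. Ccl3, Ccl5 and Cxcl1 missed the threshold without AP-3-84 library 3 (adjusted p = 0.0504 to 0.384 over all cases named). Ccl8 moved from -6.15 to -6.82 on the log2 scale without AP-3-84 library 3. Of the 7 calls, 3 were left without vehicle library 1 or AP-3-84 library 2, and 2 without AP-3-84 library 1.

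The receptors Ccr2, Cx3cr1 and Cxcr4 fell and Ccr1 rose with AP-3-84 in thioglycollate macrophages. Of 38 members 1 rose and 3 fell, where 2.51% of all genes were higher and 1.82% lower (4.32% called). Median log2 fold changes were 0.06 for the members and 0.03 for all genes. Ccr2 was at 2.97, 2.61 and 3.01 CPM with AP-3-84 and 6.70, 5.22 and 7.54 with vehicle (log2 fold change -1.18 ± 0.13, adjusted p = 3.73e-05), and Cx3cr1 at 16.7, 14.6 and 15.3 against 28.9, 28.4 and 25.3 (log2 fold change -0.82 ± 0.10, adjusted p = 6.06e-05). Both calls stood in every alternative. Cxcr4 was at 136, 128 and 125 against 173, 149 and 168 CPM (log2 fold change -0.33 ± 0.07, adjusted p = 0.00999), and Ccr1 rose to 13.1, 12.7 and 13.7 from 8.87, 9.53 and 10.3 (log2 fold change 0.46 ± 0.11, adjusted p = 0.0296). The groups did not overlap for any of the 4 receptors. Macrophage markers summed to 27662 to 32826 CPM with AP-3-84 and 34346 to 34808 with vehicle (8 of 8 with counts), and dendritic cell markers to 4.78 to 5.56 and 3.32 to 3.80 (5 of 5), and their part was not tested. Ccr1 and Cxcr4 missed the threshold without vehicle library 1 or 3 or AP-3-84 library 3, and Ccr1 without vehicle library 2 or AP-3-84 library 1 or 2, with median-ratio size factors, with the replicate block, in DESeq2's Wald test or in a fit of the compared groups alone (adjusted p = 0.0506 to 0.141 over all cases named). Without vehicle library 1, vehicle library 3 or AP-3-84 library 3, 2 of the 4 members were called.

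In ascites macrophages 1 of 38 members changed: Cxcl2 was at 55.0, 61.1 and 51.1 CPM with AP-3-84 and 38.5, 33.1 and 28.4 with vehicle (log2 fold change 0.74 ± 0.17, adjusted p = 0.0352). Over all genes 1.69% were higher and 0.1% lower (1.79% called). The members' median log2 fold change was -0.07, beside 0.00 over all genes tested. Cx3cr1 had 189, 146 and 170.3 against 213, 206 and 222 CPM (log2 fold change -0.34 ± 0.08, adjusted p = 0.0503) and Ccr2 124, 124 and 117 against 139, 143 and 149 (log2 fold change -0.24 ± 0.09, adjusted p = 0.296), each without overlap and without a call. Cxcl12 (log2 fold change -0.98 ± 0.34, adjusted p = 0.235), Cxcr4 (-0.21 ± 0.07, adjusted p = 0.2), Ccl12 and Ccl9 were also lower without overlap and without a call. Macrophage markers summed to 23917 to 28623 CPM with AP-3-84 and 28832 to 30677 with vehicle (8 of 8 with counts), and their part was not tested. Cxcl2 missed the threshold without vehicle library 2 or 3 or AP-3-84 library 1 or 2, with scaling by total counts or without the libraries that stood apart (adjusted p = 0.06 to 0.165 over all cases named). No member was called without vehicle library 2, vehicle library 3 or AP-3-84 library 2.

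In the other 4 populations edgeR called no member. The share of all genes called was 0.144% in WT M0, 0.017% in WT M1, 0% in KO M1 and 0.0509% in KO M2. Members with an unadjusted edgeR p under 0.05 numbered 6, 3, 0 and 6 of 32, where 1107, 857, 206 and 1454 of all 11779 genes had one. DESeq2's Wald test called 1, 0, 0 and 0 members. The members' medians were -0.65, 0.03, -0.09 and 0.01, beside -0.01, 0.01, -0.02 and 0.00 over all genes. In WT M0 the values of Ccl2 were 3.25, 11.8 and 60.6 CPM with AP-3-84 and 656, 93.2 and 50.6 with vehicle (log2 fold change -3.40 ± 1.09, 95% interval -5.66 to -1.14, adjusted p = 0.286). In KO M2 they were 66.2, 28.3 and 21.7 against 38.2, 221 and 675 (log2 fold change -3.02 ± 1.07, 95% interval -5.22 to -0.81, adjusted p = 0.246). Ccl24 in KO M2 was at 618, 651 and 292 against 665, 98.9 and 230.2 CPM (log2 fold change 0.65 ± 0.48, 95% interval -0.33 to 1.63). 3 of 32 members were called in KO M2 without vehicle library 1.

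The CCR2 ligands differed in spread between the states. In WT M1 all 6 libraries, with or without AP-3-84, held Ccl2 between 425 and 837 CPM, and in KO M1 between 723 and 992. In WT M2 vehicle libraries it was at 547, 58.2 and 42.1 CPM and in KO M2 vehicle libraries at 38.2, 221 and 675, a wide spread inside a group of 3. Ccl2, Ccl7 and Ccl12 were highest in the same vehicle library of WT M0 (library 1), WT M2 (library 1) and KO M2 (library 3), as the plot of CCR2 ligands shows.

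**Figure D5:**
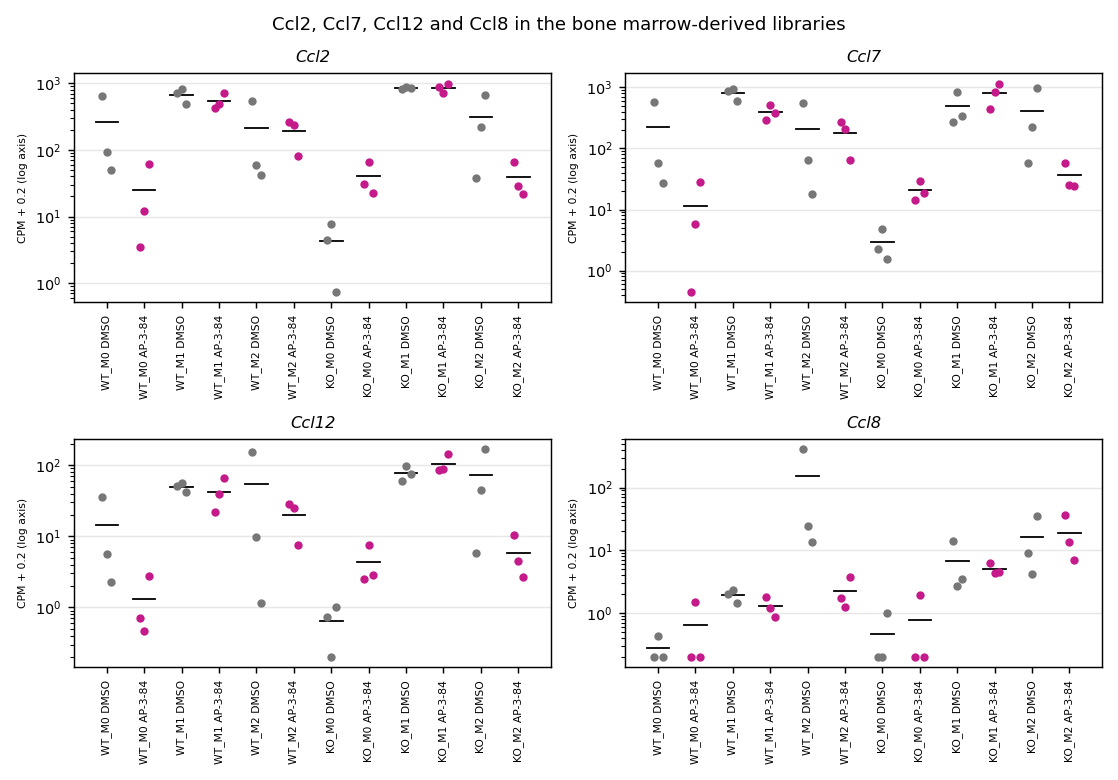
Level (CPM + 0.2, log axis) of Ccl2, Ccl7, Ccl12 and Ccl8 in the 12 bone marrow groups (grey DMSO, magenta AP-3-84); points are libraries 1, 2 and 3 from left to right and the line is the mean. The M1 groups are tight for Ccl2, while single libraries lift the WT M0, WT M2 and KO M2 vehicle means.

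Differences between populations in the AP-3-84 response were tested as interactions. A response is a signed log2 fold change, so a smaller fall counts as a higher response. KO M0 against WT M0 gave 5 members with a higher log2 response in KO and 1 with a lower one, where 10% and 6.99% of all genes differed (17% called). Ccl3, Ccl4 and Cxcl10 differed by 3.29 ± 0.67, 4.70 ± 0.98 and 4.37 ± 1.12 (adjusted p = 0.00182, 0.00224 and 0.0091), and these calls stood in every alternative. With AP-3-84 the KO M0 libraries held Ccl3 at 248, 349 and 115 and WT M0 at 96.0, 103 and 167 CPM, where vehicle libraries had 46.1, 47.4 and 45.4 and 242, 246 and 215. Ccl2 and Ccl7 differed by 6.73 ± 1.70 and 7.23 ± 1.98, and Cxcr4 by -3.33 ± 0.98. Ccl2, Ccl7 and Cxcr4 missed the threshold in a fit of the compared groups alone, and Ccl7 and Cxcr4 without WT M0 vehicle library 1. Ccl7 missed the threshold without the libraries that stood apart, and Cxcr4 without WT M0 AP-3-84 library 1 (adjusted p = 0.0512 to 0.193 over all cases named). Ccl2 moved from 6.73 to 4.84 and Ccl7 from 7.23 to 4.84 on the log2 scale without WT M0 vehicle library 1. Ccl2 moved from 6.73 to 8.48, Ccl4 from 4.70 to 5.39 and Ccl7 from 7.23 to 9.23 without WT M0 AP-3-84 library 3. Ccl2 moved from 6.73 to 7.44 without KO M0 vehicle library 2. Ccl2 moved from 6.73 to 6.13 without KO M0 AP-3-84 library 2. Cxcr4 moved from -3.33 to -6.66 without KO M0 AP-3-84 library 3.

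Between KO M2 and WT M2, the log2 response was higher in KO for 5 members and lower for none. Of all genes, 1.08% were higher and 0.688% lower (1.77% called). All 5 members fell with AP-3-84 in WT M2, and no member was called in KO M2. Higher here therefore means that the fall seen in WT was smaller or absent in KO. Ccl9 differed by 1.45 ± 0.27, Cxcl16 by 1.82 ± 0.34 and Ccl24 by 3.55 ± 0.70 (adjusted p = 0.00461, 0.00461 and 0.0096). Ccl9 kept its call in every alternative. Ccl24, Ccl8, Cxcl1 and Cxcl16 missed the threshold in a fit of the compared groups alone, and Ccl8 and Cxcl1 without WT M2 vehicle library 1, WT M2 AP-3-84 library 1 or 2, KO M2 vehicle library 2 or KO M2 AP-3-84 library 2, with the replicate block or without the libraries that stood apart. Ccl8 missed the threshold without KO M2 AP-3-84 library 1, and Cxcl1 without WT M2 vehicle library 2, WT M2 AP-3-84 library 3, KO M2 vehicle library 3 or KO M2 AP-3-84 library 3 or with scaling by total counts (adjusted p = 0.0515 to 0.268 over all cases named). Ccl24 moved from 3.55 to 4.56 and Cxcl16 from 1.82 to 2.45 on the log2 scale without KO M2 vehicle library 1. Ccl8 moved from 6.37 to 3.39 and Cxcl1 from 3.79 to 2.29 without WT M2 vehicle library 1. Ccl8 moved from 6.37 to 7.04 without WT M2 AP-3-84 library 3. Ccl8 moved from 6.37 to 7.68 without KO M2 vehicle library 3. Ccl8 moved from 6.37 to 5.50 without KO M2 AP-3-84 library 1. Between KO M1 and WT M1 no member was called (0.00849% of genes by edgeR, and 0 members by DESeq2). There, 2 of 32 members had an unadjusted edgeR p under 0.05, where 831 of all 11779 genes had one. With AP-3-84, Ccr2 had a log2 fold change of -0.24 in ascites (not called) and -1.18 in thioglycollate. The smaller fall in ascites was a difference of 0.95 ± 0.16 (adjusted p = 0.0302). Of all genes, 0.0767% had a higher and 0.0413% a lower response in ascites (0.118% called). Ccr2 missed the threshold without ascites vehicle library 1, 2 or 3, ascites AP-3-84 library 2, thioglycollate vehicle library 1 or 3 or thioglycollate AP-3-84 library 1, 2 or 3 or with the replicate block (adjusted p = 0.0566 to 0.107 over all cases named).

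Other genes of the pathway were taken from 3 lists fixed by name: 13 other chemoattractants and their receptors, 30 genes that carry chemokine receptor signals, and 10 that cleave or bind chemokines. Between ascites and thioglycollate 8 of 12 tested chemoattractant genes rose (C5ar1, Cd74, Cmklr1, Fpr1, Fpr2, Ltb4r1, Mif and Ppbp) and 3 fell (C5ar2, Ccrl2 and Pf4), while 12 of 30 signalling genes rose and 5 fell. Fpr1 and Fpr2 are receptors for bacterial formyl peptides, and Pf4 is a chemokine named outside the rule. AP-3-84 in KO M0 raised 10 of 30 signalling genes, among them the kinase Lyn (log2 fold change 1.37 ± 0.19, adjusted p = 5.67e-06) and the GTPase Rac2 (log2 fold change 2.70 ± 0.26, adjusted p = 3.9e-08), and lowered Rgs10 and Rgs2, regulators that switch off G protein signals. In the same contrast Fpr1 and Fpr2 rose (log2 fold change 5.99 ± 0.84, adjusted p = 2.32e-05, and 5.36 ± 0.72, adjusted p = 1.37e-05), and Cmklr1 and Pf4 fell. KO M0 against WT M0 in vehicle gave 4 signalling genes higher and 8 lower, with Lyn and Rac2 among the lower, and Fpr1 and Fpr2 lower; it shares the KO M0 vehicle libraries with the AP-3-84 contrast. In WT M2, AP-3-84 called none of the 30 signalling genes and lowered Cmklr1, Fpr2 and Mmp14. In thioglycollate it raised Grk5, Rgs1 and Mmp12 and lowered, among others, Rgs10, C5ar1 and Sdc3. The shares of all genes called in each contrast, given above, are the background of these counts.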

How the data were processed

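3′ mRNA libraries (QuantSeq FWD, 100 ng of DNase-treated RNA, single reads of 75 bases, NextSeq 2000) were made from 48 samples in 16 groups of 3, per the labels' protocols. The authors deposited whole-number raw counts per Ensembl gene identifier for all samples in 1 table. RSEM, Bowtie2 and DESeq2 are named without versions or roles in the submitters' processing notes. For the build, annotation, strand setting and molecular identifiers, the entry is: not given in the sources used here.

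Symbols came from a gene name table (51596 of 51789 identifiers matched), and biotypes and coordinates from GENCODE M21 (GRCm38). The members and lists were chosen with earlier results of these data known. The 12 peritoneal and 36 bone marrow libraries were fitted separately with edgeR 4.0.16 (R 4.3.3, limma 3.58.1): filterByExpr by group (16955 and 11779 genes left), TMM scaling, 1 mean per group, robust quasi-likelihood F-tests, two-sided, with Benjamini-Hochberg adjustment over all genes of a set and a threshold of 0.05. Standard errors are the absolute log2 fold change divided by the square root of F. The biological coefficient of variation was 0.168 and 0.225. There were 22 comparisons: 8 of AP-3-84 with vehicle, 8 between vehicle groups and 6 interactions. Every member that passed is counted by direction, those described first have the largest changes without overlap between groups (up to 6 each way), and 30 listed genes, Cxcl11 among them, are named whether or not they passed, with their levels given as the lowest and highest of the bone marrow groups and the vehicle values of the peritoneal ones. No replicate pairs were duplicates: the chi-square per gene was 5.61 to 28.1 in peritoneal and 2.57 to 42.6 in bone marrow pairs. The scripts were tested on simulated counts. A member and a listed signalling gene are not reported here, though counts include them.

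7 alternatives were planned (median-ratio size factors, total counts, no filter on low counts, the DESeq2 1.42.0 Wald test, only the groups compared, a replicate block, and leaving out each library), and 1 was chosen after seeing the data: leaving out the 6 libraries whose chi-square per gene to both mates was over 2 times that between the mates. Replicate numbers come from the labels. Same-numbered samples deviated together in each pair only for WT M2 against WT M0 (r from 0.133 to 0.229), where the block moved no call.

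Without a stated strand setting, reads cannot be told apart from those of overlapping opposite-strand genes at Ccl2 (Gm17268), Ccl6 (E230016K23Rik), Cx3cr1 (Wdr48), Cxcl10 (Art3), Ccl27a (Il11ra1), Cxcr6 (Fyco1) and Ccr9. Ccl19, Ccl21a, Ccl21b, Ccl27a and Ccl27b share sequence with copies, and Cxcl2 shares 12.6% of its last 30-base words with Cxcl3. Motifs were searched in the 250 bases before each RefSeq start with Python 3.11.15 and pandas 2.3.3.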

Additional observations from a re-analysis of the deposited data

Results flagged for a closer look

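All results here are responses that differed between groups by an interaction test (edgeR, adjusted p under 0.05), as differences of log2 fold changes. The sign counts, so a smaller fall lies above a larger one. For AP-3-84, Ccr2 fell less in ascites than in thioglycollate, a difference of 0.95. In KO M0 the response was above that in WT M0 for Ccl7 by 7.23, Ccl2 by 6.73, Ccl4 by 4.70, Cxcl10 by 4.37 and Ccl3 by 3.29, and Cxcr4 differed by -3.33. In KO M2 it was above that in WT M2 for Ccl8 by 6.37, Cxcl1 by 3.79, Ccl24 by 3.55, Cxcl16 by 1.82 and Ccl9 by 1.45. These genes fell with AP-3-84 in WT M2 and were not called in KO M2.

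For polarization in vehicle, the M1 change in KO was above that in WT for Cxcl1 by 7.32, Ccl2 by 6.40, Cxcl10 by 6.15, Cxcl2 by 5.85, Ccl7 by 5.67, Ccl3 by 4.48, Ccl4 by 4.34 and Ccl9 by 0.74, and Cx3cr1 differed by -2.79. The M2 change in KO was above that in WT for Ccl7 by 7.37, Ccl2 by 6.59, Cxcl10 by 4.10, Ccl4 by 2.94 and Ccl3 by 1.78, and differed by -4.51 for Cxcl12, -2.96 for Cxcr4 and -0.89 for Cxcl16. The AP-3-84 and polarization differences between KO M0 and WT M0 share the M0 vehicle libraries.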

How the results depend on the processing

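Of 168 called member values, 92 kept their call in every alternative, 76 lost it in at least 1, 62 lost it without at least 1 library, and 0 changed direction. Median-ratio size factors and total counts moved no count of called members by over 1.5 times. DESeq2's Wald test moved KO M2 against WT M2 2 to 4, AP-3-84 in ascites 1 to 2 and AP-3-84 in WT M0 0 to 1. A fit of only the groups compared moved WT M2 against M0 13 to 8, KO M2 against WT M2 2 to 0, the AP-3-84 interaction in M2 5 to 1, the M2 polarization interaction 8 to 2, AP-3-84 in WT M0 0 to 1 and AP-3-84 in WT M2 7 to 2. The replicate block moved the AP-3-84 interaction in M2 5 to 3, the ascites interaction 1 to 0 and AP-3-84 in ascites 1 to 2, and it ended the calls of Ccr1 with AP-3-84 in thioglycollate, Ccl12 in KO M0 against WT M0, Ccr2 (ascites interaction), Ccl8 and Cxcl1 (AP-3-84 interaction in M2), Ccl9 (M1 polarization interaction) and Ccl3 (M2 polarization interaction), and no other member call. Leaving out the libraries that stood apart moved KO M2 against WT M2 2 to 1, the M1 polarization interaction 9 to 5, AP-3-84 in WT M2 7 to 4 and AP-3-84 in KO M0 8 to 13. With no filter on low counts the counts moved, WT M1 against M0 8 to 16, WT M2 against M0 13 to 20, KO M1 against WT M1 6 to 16, KO M2 against WT M2 2 to 15, the AP-3-84 interaction in M0 6 to 13, the AP-3-84 interaction in M1 0 to 3, the AP-3-84 interaction in M2 5 to 17, the ascites interaction 1 to 2, the M1 polarization interaction 9 to 14, the M2 polarization interaction 8 to 16, AP-3-84 in ascites 1 to 2, AP-3-84 in WT M0 0 to 9, AP-3-84 in WT M1 0 to 5, AP-3-84 in WT M2 7 to 17, AP-3-84 in KO M0 8 to 17, AP-3-84 in KO M1 0 to 1 and AP-3-84 in KO M2 0 to 9. In that fit the standard error of Ccl2 in KO M0 against WT M0 was 0.25, against 1.34 with the filter. The cause of these moves was not tested.

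Leaving out each library in turn gave these ranges of called members: ascites against thioglycollate 26 to 27, WT M1 against M0 5 to 8, WT M2 against M0 12 to 15, KO M1 against M0 19 to 24, KO M2 against M0 13 to 23, KO M0 against WT M0 11 to 14, KO M1 against WT M1 4 to 6, KO M2 against WT M2 0 to 5, the AP-3-84 interaction in M0 4 to 7, the AP-3-84 interaction in M1 0 to 0, the AP-3-84 interaction in M2 3 to 8, the ascites interaction 0 to 1, the M1 polarization interaction 7 to 11, the M2 polarization interaction 4 to 12, AP-3-84 in ascites 0 to 1, AP-3-84 in thioglycollate 2 to 3, AP-3-84 in WT M0 0 to 0, AP-3-84 in WT M1 0 to 0, AP-3-84 in WT M2 2 to 9, AP-3-84 in KO M0 3 to 11, AP-3-84 in KO M1 0 to 0 and AP-3-84 in KO M2 0 to 3.

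Scaling by total counts moved the median log2 fold change of all genes by over 0.1 in WT M2 with AP-3-84 (to 0.113), its M2 interaction (-0.151), KO M1 and KO M2 against WT (0.272 and 0.190), both polarization interactions (0.232 and 0.128) and WT M1 and WT M2 against M0 (-0.301 and -0.198). Splits of higher and lower members then became 0 and 1 for AP-3-84 in ascites (1 and 0 before), 6 and 2 for WT M1 against M0 (7 and 1) and 6 and 2 for the M2 polarization interaction (5 and 3). Depth limits the bone marrow set: members under about 1 CPM rest on 1 to 3 counts, and a member that passed no filter was not shown to be absent.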
